A study of Arabidopsis thaliana with 4 samples.

Results

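The genes described here act in root hair development in Arabidopsis thaliana. They are 46 listed loci that cover the choice between hair and non-hair cells, bHLH transcription factors of the RHD6 and RSL family with LRL3, wall proteins and peroxidases of growing hairs, and the kinases and other machinery of tip growth. The deposited table names 33414 loci, holds all 46, and tested all 46. Transcript levels came from RNA sequencing of whole dark-grown seedlings of a srt1srt2 double mutant in the Col background. SRT1 and SRT2 encode sirtuins, NAD-dependent histone deacetylases, and every library carried both mutations. Seedlings grew in the dark for 3 days at 24 °C in hydrocarbon-free air. They were then treated for 4 hours either with that air (2 libraries) or with the same air holding 10 ppm ethylene (2 libraries). Nothing in the labels tells whether replicate libraries were made from independently grown plants, so the spread behind the authors' test may be technical. Libraries of plants without these mutations were not analysed here, so nothing below says what the mutations change.

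The authors gave 1 pooled value per gene and condition, in FPKM (sequenced fragments per transcript length, scaled to the mapped fragments of the library). Values of single libraries were not used here, no standard deviation between libraries can be given, and the depth per library is unknown. A gene is called higher or lower where the authors' Cuffdiff test has a q (p-value adjusted by the Benjamini-Hochberg method over all tested entries) of at most 0.05. Standard errors of log2 ratios were obtained by dividing the log2 ratio by the deposited test statistic. The deposited p-values correspond to statistics larger by a median factor of 1.43, so standard errors taken from p would be smaller by about that factor. The table does not settle which column is on the intended scale. The tissue markers were checked next. PORA and PORB, enzymes that accumulate in dark-grown plants, measured 397 and 701 FPKM in air. Among 8 cortex and endodermis markers, the endodermal genes CASP1 and CASP5 were highest in air, at 236 and 330.0 FPKM. AT1G62500 was the lowest of the 8, at 1.09 FPKM. The 5 root tip markers lay between 0.407 and 1.40 FPKM in air.

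Root hairs are tubular outgrowths of epidermal cells that take up water and nutrients. In the Arabidopsis root, WER, GL3 or EGL3, and TTG1 form a complex that switches on GL2 in non-hair cells, and GL2 holds the hair programme off. CPC moves into the neighbouring cells and blocks that complex, so that RHD6 and then RSL4 can start and sustain hair growth. Ethylene is known to promote root hairs, and the ethylene transcription factor EIN3 has been reported to act with RHD6 on RSL4.

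Ethylene raised 16 of the 46 root hair genes and lowered 1, with 29 not called. That is 34.8% of the list called higher, where 4.79% of the 20786 tested entries naming a gene were called higher and 6.50% lower. The 46 genes were chosen with earlier results of these data known, so this share and those below are no independent test. At a stricter q of at most 0.01, 11 of the 46 were called higher, against 3.35% of all entries. Among entries of at least 1 FPKM in either condition, 16 members were called higher and 1 lower, against 4.98% and 6.82%. The genes that rose were mostly those that build the hair wall. They comprised 6 of 10 cell wall genes, 5 of 7 peroxidases, 2 of 6 bHLH factors (RSL4 among the 5 of the RHD6 and RSL family, and LRL3), 2 of 7 genes of the tip machinery and 1 of 4 transport and other genes. None of the 6 fate genes and none of the 6 kinase and calcium genes was called by Cuffdiff. Over all tested entries, 11.3% were called in either direction, and groups of 6 genes are too small to set against that share. At an unadjusted p under 0.05 no fate gene and 2 kinase genes passed. ROP2, a small GTPase, was the gene that fell. The median change over the 46 genes was 0.36 as log2((ethylene FPKM + 1)/(air FPKM + 1)), against 0.008 over all tested entries naming a gene. Of the 46 genes, 10 were called higher with a change of at least 2-fold, against 2.45% of all tested entries. Among called genes alone, these were 10 of the 16 that rose, beside 510 of the 995 entries called higher. Values were higher in ethylene for 31 of the 46 genes, against 51.0% of all entries. A further 6 genes (RHD6, RHS12, RSH3, IRE, MRH2 and MRH6) had an unadjusted p under 0.05 without being called, all with the higher value in ethylene. With them, 22 of 46 genes, 47.8%, had a higher value in ethylene at that p, against 9.17% of all entries. In whole seedlings, more hair cells and more RNA per hair cell cannot be told apart.

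**Figure D1:**
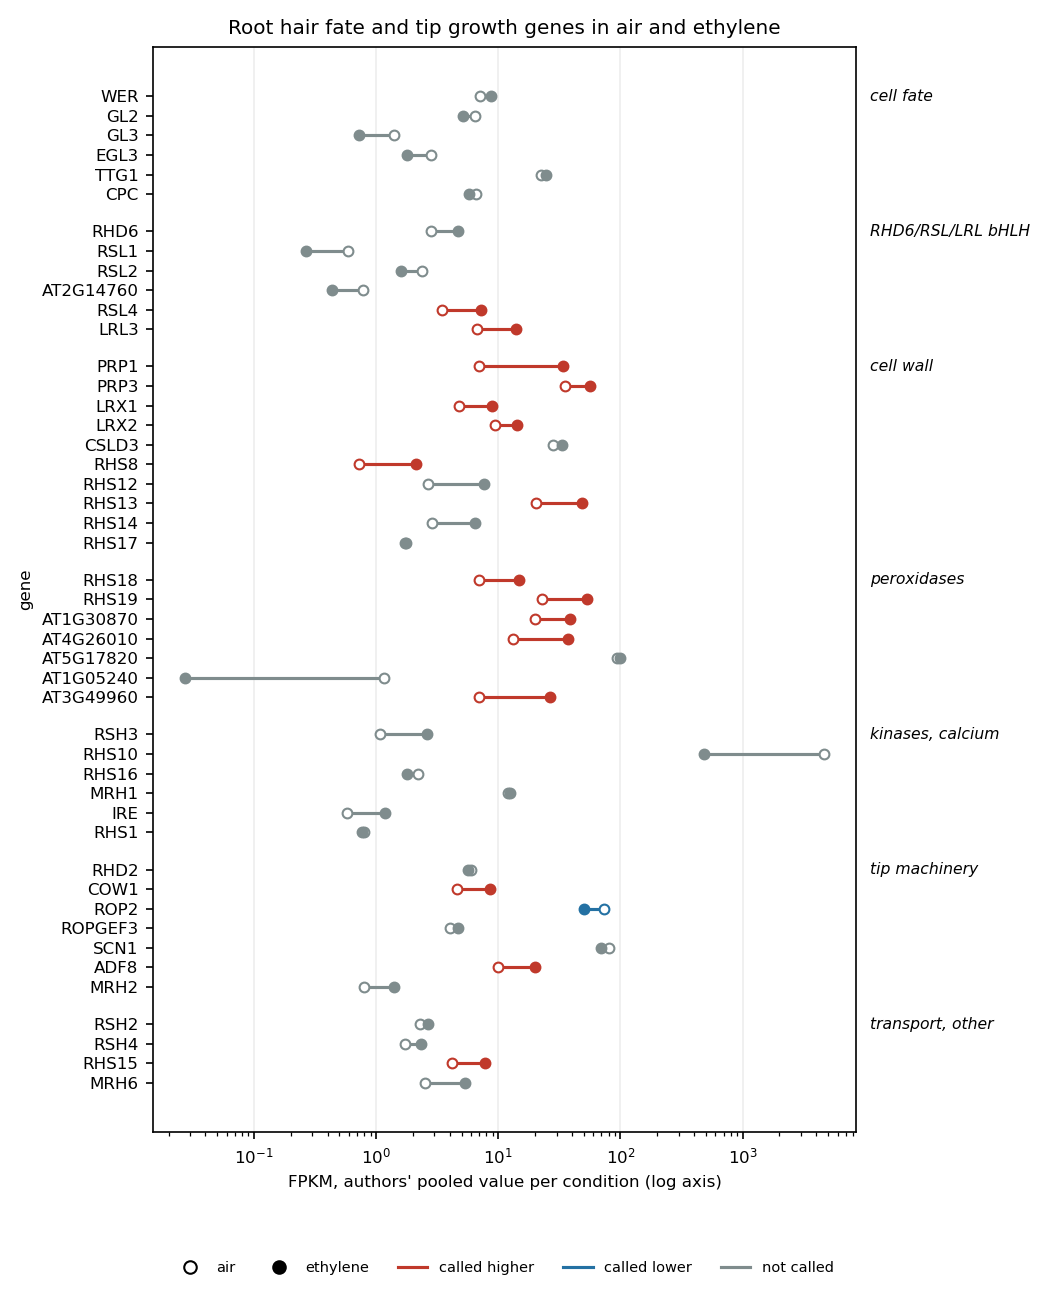
FPKM of each of the 46 root hair genes in air (open circles) and ethylene (filled circles) on a log axis, grouped by role, with the line coloured by the call in the authors' test. Red lines run to the right in the cell wall and peroxidase groups, where 6 of 10 and 5 of 7 genes were called higher, and ROP2 is the only gene called lower.

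The number of higher calls rests on how the authors' test is read. The deposited p-values were smaller than a standard normal curve gives for the deposited statistics, by a median factor of 1.43 in the normal quantile. With p recomputed from the statistic on that curve, 8 of the 46 genes were called higher and 0 lower, against 2.57% and 3.20% of all tested entries. Those 8 were PRP1, LRX1, RHS13 and the 5 peroxidases that rose.

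The genes of hair and non-hair fate did not pass the test. WER, the MYB factor of non-hair cells, measured 7.09 FPKM in air against 8.67 under ethylene (log2 ratio 0.29, standard error 0.46). TTG1, the WD40 protein of the complex and the most abundant of the 6, was at 22.4 and 24.5 FPKM. The bHLH partners GL3 and EGL3 had lower values in ethylene, 0.724 against 1.40 FPKM and 1.79 against 2.79 FPKM. Both differences stayed within the test's limit, at q values of 0.365 and 0.292 in the authors' deposited table. CPC, the mobile inhibitor, measured 6.56 FPKM in air against 5.80 under ethylene. GL2, the homeodomain factor downstream of the complex, is split over 3 entries of the same span. The entry with the highest mean measured 6.44 FPKM in air against 5.18 under ethylene, another at 5.45 and 3.46, and the third at 0.397 and 5.99. None of the 3 was called. The standard error of the log2 ratio of the first, 3.62, is wide enough that a change of several fold in either direction would not have been detected. Several fate genes also act in the shoot epidermis, which whole seedlings contain.

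Among the bHLH factors that start and drive hair growth, RSL4 and LRL3 rose and the other 4 were not called. RSL4 (AT1G27740, TAIR10.1 chromosome 1, 9654475 to 9656089), whose level sets hair length, measured 3.45 FPKM in air against 7.25 under ethylene. Its 2.10-fold rise (log2 ratio 1.07, standard error 0.48) had a q of 0.0336 in the authors' deposited table. This was the highest q among the 17 called genes, and the call was lost with the normal reference (q = 0.268 after Benjamini-Hochberg adjustment). LRL3 (AT5G58010, chromosome 5, 23483366 to 23485014), a related factor needed for hair growth, rose 2.07-fold, from 6.75 in air to 14.0 FPKM (log2 ratio 1.05, standard error 0.37). It had a q of 0.00164 in the authors' deposited table, and a q of 0.0750 with the normal reference. RHD6, which acts upstream of RSL4, measured 2.80 FPKM in air against 4.66 under ethylene and missed the threshold, with a q of 0.164 in the authors' deposited table. The remaining 3 factors had lower values in ethylene and were not called. RSL2, which acts beside RSL4, measured 2.36 FPKM in air against 1.61 under ethylene, RSL1 at 0.590 and 0.265, and AT2G14760 at 0.784 and 0.439. The coding sequence of RSL4 is closest to that of AT5G43175, with 74.5% identity over 59.1% of its length.

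The 250 bases before the annotated start of RSL4 are shown because they hold 3 copies of ATGTA, the core of the site bound by EIN3, in a gene that EIN3 has been reported to regulate. Capitals mark the core on either strand. The sequence lies at chr1:9654225-9654474 on the plus strand and was read from the RefSeq TAIR10.1 genome.
RSL4: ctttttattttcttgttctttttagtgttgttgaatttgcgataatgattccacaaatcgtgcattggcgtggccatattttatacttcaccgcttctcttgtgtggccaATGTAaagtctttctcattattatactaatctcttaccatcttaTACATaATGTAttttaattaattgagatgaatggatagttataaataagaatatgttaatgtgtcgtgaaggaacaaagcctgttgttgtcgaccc

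The 3 cores of RSL4 start 140, 96 and 90 bases before the gene. The core was found in the 250 bases before 52.0% of the 27443 nuclear protein-coding genes with such a window, before 28 of the 46 root hair genes (60.9%) and before 10 of the 16 that rose (62.5%). The share among the root hair genes is thus near the background.

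The cell wall genes included the largest change of the called genes. PRP1 (AT1G54970, chromosome 1, 20504901 to 20506504), a proline-rich structural wall protein of root hairs, measured 6.90 FPKM in air against 34.0 under ethylene. This 4.93-fold rise (log2 ratio 2.30, standard error 0.30) is that change. Its relative PRP3 (AT3G62680) rose less, 1.58-fold, from a higher level, 35.5 FPKM in air and 56.0 in ethylene. Their coding sequences are 74.8% identical. The authors' deposited table gives PRP3 a q of 0.00302, and the normal reference a q of 0.0876. A second PRP3 entry over these coordinates measured 16.6 FPKM in air against 14.4 under ethylene and missed the threshold. RHS13 (AT4G02270, chromosome 4, 992111 to 993039), a short root hair protein, rose 2.38-fold, from 20.5 in air to 48.9 FPKM (log2 ratio 1.25, standard error 0.30). RHS8 (AT1G63450), an enzyme of xyloglucan modification in root hairs, rose 2.88-fold but from a low level, 0.728 FPKM in air and 2.10 in ethylene. The log2 ratio stood at 1.53 (standard error 0.55), and the call was lost with the normal reference, at a q of 0.0826.

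The leucine-rich repeat extensins LRX1 and LRX2, wall proteins that keep the growing hair intact, rose together by less than 2-fold. LRX1 measured 4.74 FPKM in air against 8.82 under ethylene, and LRX2 9.48 and 14.1 FPKM. Their coding sequences are 72.7% identical, and LRX2 was not called with the normal reference (q = 0.213). The 4 wall genes not called include 2 with more than 2-fold higher values in ethylene. RHS12, a pectin methylesterase, measured 2.66 FPKM in air against 7.61 under ethylene, with a standard error of 0.86 on a log2 ratio of 1.52. RHS14, a pectate lyase, was at 2.87 and 6.42 FPKM. RHS14 is 93.4% identical in coding sequence to AT4G22090, which lies next to it. An entry that names both measured 1.60 FPKM in air against 3.59 under ethylene, a 2.24-fold ratio like that of RHS14, and was called higher with a q of 0.0432 in the authors' deposited table. How the counting split the reads of this pair is not given, so neither value is certain for either gene. CSLD3, a cellulose synthase-like enzyme without which hairs burst, measured 28.2 FPKM in air against 33.2 under ethylene (log2 ratio 0.23, standard error 0.21). RHS17 measured 1.74 FPKM in air against 1.71 under ethylene. Summed over the 10 wall genes, the level went from 113 to 213 FPKM.

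**Figure D2:**
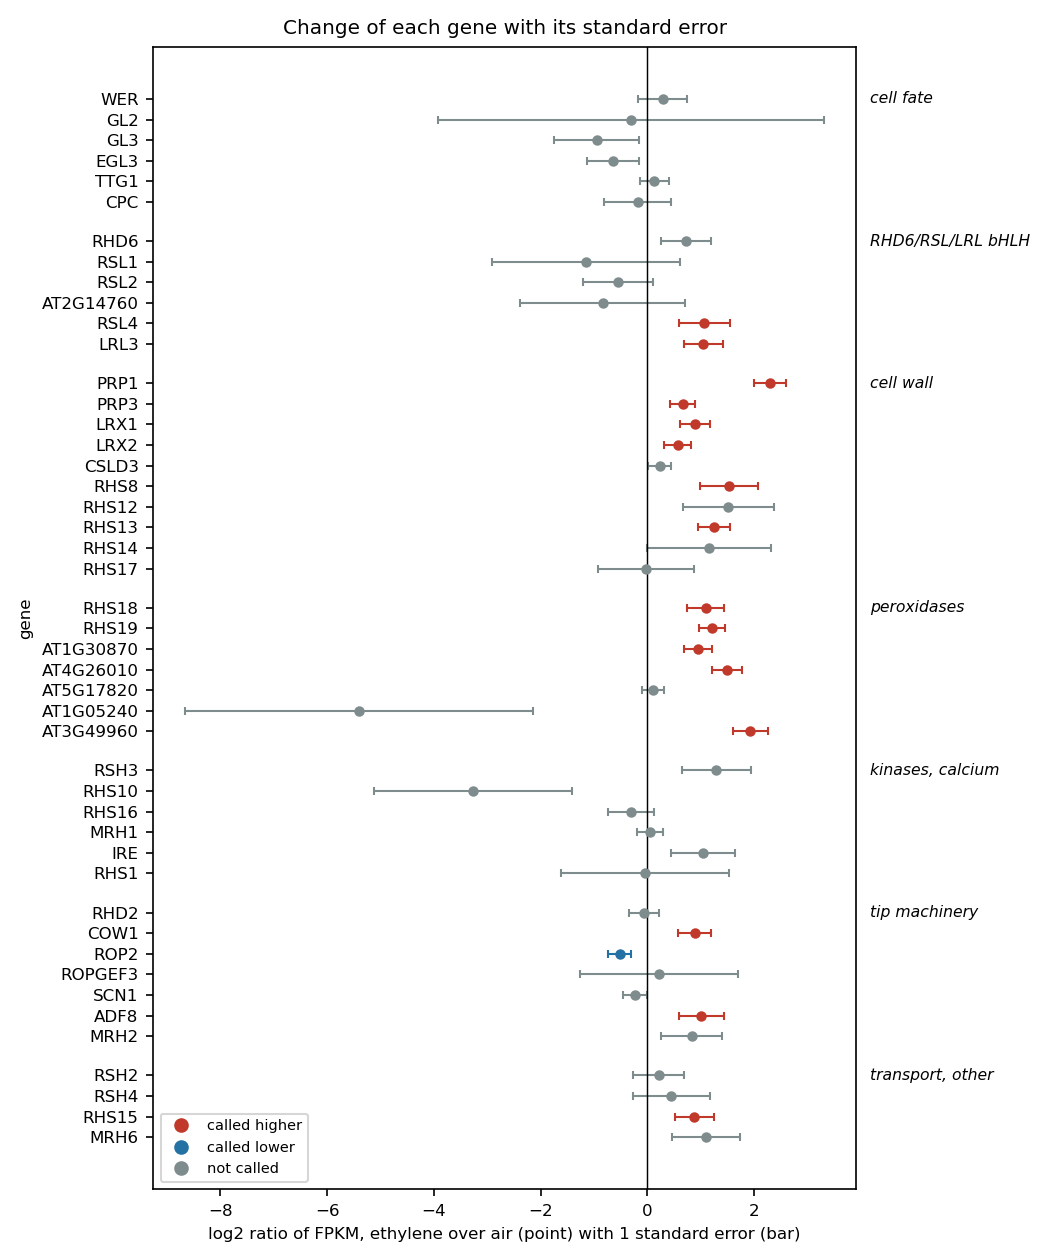
Log2 ratio of ethylene over air FPKM for each root hair gene (points) with 1 standard error on either side (bars), derived from the deposited test statistic and coloured by the call. The red points of the wall genes and peroxidases lie between 0.57 and 2.30, and the widest bars belong to genes that were not called, such as GL2, AT1G05240 and RHS10.

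Class III peroxidases of root hairs, secreted enzymes that cross-link or loosen the wall with peroxide, rose in 5 of 7 cases, and all 5 calls held with the normal reference. The largest change was that of AT3G49960 (chromosome 3, 18524084 to 18525792), which measured 6.94 FPKM in air against 26.4 under ethylene, 3.80-fold higher (log2 ratio 1.93, standard error 0.33). AT4G26010 (chromosome 4, 13200414 to 13202164) rose 2.82-fold, from 13.2 in air to 37.1 FPKM (log2 ratio 1.49, standard error 0.28). RHS19 (AT5G67400, chromosome 5, 26894778 to 26896488) rose 2.32-fold, from 22.8 in air to 52.8 FPKM (log2 ratio 1.21, standard error 0.25). RHS18 went from 7.01 to 14.9 FPKM and AT1G30870 from 20.0 to 38.5. All 5 have the smallest q in the authors' deposited table, 0.000878, which many genes share, so they cannot be ranked by it. AT3G49960 and RHS19 are 79.9% identical in coding sequence over 95.5% of their length, and both rose.

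The most abundant peroxidase of the list did not follow. AT5G17820 measured 93.1 FPKM in air against 99.5 under ethylene (log2 ratio 0.10, standard error 0.21). AT1G05240 measured 1.15 FPKM in air against 0.0273 under ethylene and missed the threshold. Its coding sequence is identical over its whole length to that of AT1G05250, which had values of 0 in air and 0.0967 FPKM under ethylene and was not tested, so reads of these copies cannot be told apart and no fold is read from them. Summed over the 7 peroxidases, the level went from 164 to 269 FPKM.

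**Figure D3:**
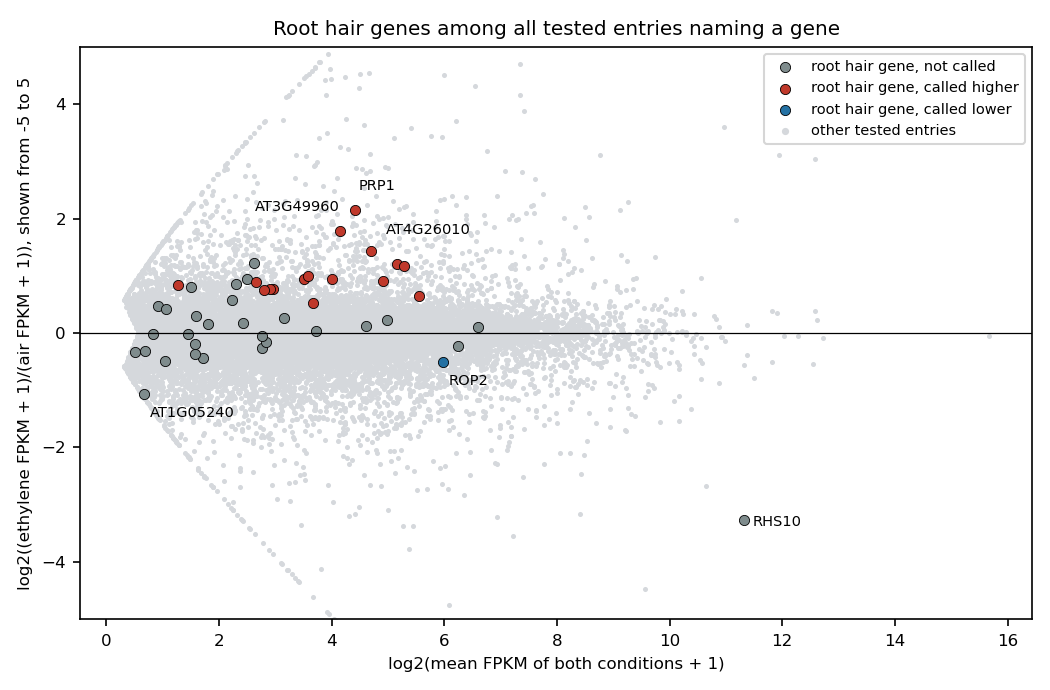
Change of every tested entry naming a gene, as log2((ethylene FPKM + 1)/(air FPKM + 1)), against its mean level (grey), with the 46 root hair genes on top, coloured by call; 65 of the 20786 entries lie outside the axis limits. The genes called higher sit at low to middle levels with PRP1 and AT3G49960 uppermost, ROP2 lies below 0 among more abundant genes, and the RHS10 entry stands far to the right.

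A promoter element was shared by many of the genes that rose. The root hair element is a short sequence described in promoters of Arabidopsis genes expressed in root hairs. Its core was searched here as TG, then 4 or 5 bases of any kind, then CACG, on both strands of the 250 bases before each gene. The core was present before 9 of the 16 genes that rose (56.2%), before 4 of the 29 genes not called (13.8%), and before 9.02% of all 27443 genes. By role it was present in 4 of 10 wall genes, 4 of 7 peroxidases, 2 of 6 kinase and calcium genes and 3 of 4 transport and other genes. No fate gene, bHLH factor or tip machinery gene had it in this window. These groups hold 6, 6 and 7 genes, too few to set against the 9.02% of all genes. The full consensus of the element, added after the data were seen, was matched before 6 of the 16 genes that rose (37.5%), 3 of the 29 not called (10.3%) and 0.754% of all genes. In a second set of 42 root hair genes, described further on, the core was present before 7 of the 13 called higher (53.8%) and before 8 of the 29 others (27.6%), and the full consensus before 2 of the 42 (4.76%). That set was chosen with earlier results of these data known, so it is no independent repeat. Whether any of its genes served to define the element was not checked.

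These shares are not independent of how some genes got on the list, because the root hair specific (RHS) series was named from a screen that used this element. Of the 15 list members in that series, PRP1 included, 8 had the core, 5 of the 6 that rose and 3 of the 9 that were not called. Of the other 31 members, 5 had the core, 4 of the 10 that rose and 1 of the 21 that did not. This split went by the listed gene names. Whether any of the 31 belongs to the series under another name, or served to define the element, was not checked. The 31 are therefore not known to be free of the same dependence. The palindrome CACGTG (the G-box) was absent before all 46 genes and present before 6.49% of all genes. A match of letters does not show that a factor binds, and no match says only that these letters are not in this window.

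The sites of the 9 genes that rose are shown to compare them, each read in the direction that runs from TG to CACG, with the core in capitals and 10 bases on either side. Where a gene has several matches, the one nearest its start is given. The sequences come from the RefSeq TAIR10.1 genome.
PRP1: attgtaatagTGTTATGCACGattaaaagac
PRP3: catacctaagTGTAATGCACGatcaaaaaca
LRX1: tcctcaaactTGGACGCACGttcctagagg
RHS13: ttgtctaccgTGCATACACGttgttcttat
RHS18: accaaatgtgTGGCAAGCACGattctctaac
RHS19: atatataactTGGAGCCACGttcttggtga
AT1G30870: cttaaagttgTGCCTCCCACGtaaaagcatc
AT4G26010: gacaatagaaTGATTCCACGcgtcaaagat
RHS15: ctatcgtttgTGCCCGCACGtaagaacagc

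The PRP1 site lies at chr1:20504764-20504794 on the minus strand, from 127 to 117 bases before the gene, and that of PRP3 at chr3:23182547-23182577 on the minus strand, from 165 to 155 bases before it. Both read against the direction of the gene. The remaining 7 sites lie at chr1:4069891-4069920 for LRX1 (minus strand), chr4:993188-993217 for RHS13 (minus), chr5:7426231-7426261 for RHS18 (minus), chr5:26894689-26894718 for RHS19 (minus), chr1:10991393-10991423 for AT1G30870 (plus), chr4:13200381-13200410 for AT4G26010 (minus) and chr4:12920628-12920657 for RHS15 (minus). Of these 9 sites, the one nearest a gene start is that of AT4G26010, from 23 to 14 bases before it. AT3G49960, the peroxidase with the largest rise, had no match in its window. The same holds for LRX2 and RHS8 among the wall genes that rose. The window of PRP1, the gene with the largest rise, is printed in full below with the core in capitals, at chr1:20504651-20504900 on the plus strand.
PRP1: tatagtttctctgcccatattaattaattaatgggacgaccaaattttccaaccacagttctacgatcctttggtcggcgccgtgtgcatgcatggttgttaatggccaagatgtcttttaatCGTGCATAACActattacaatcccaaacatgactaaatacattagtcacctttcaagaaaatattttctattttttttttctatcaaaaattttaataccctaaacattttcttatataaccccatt

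**Figure D4:**
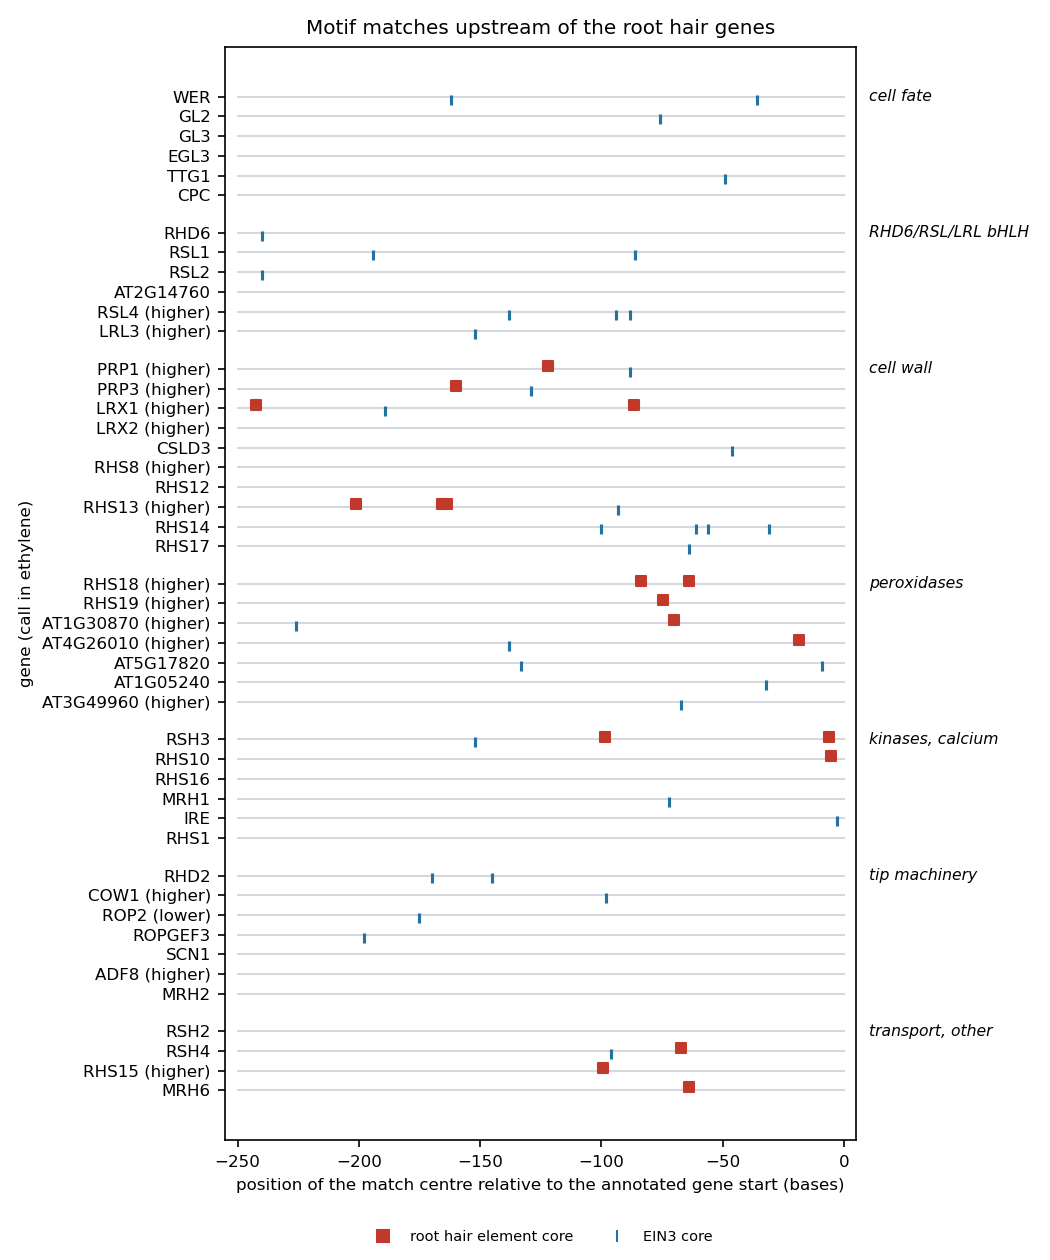
Positions of the root hair element core (red squares) and the EIN3 core (blue ticks) in the 250 bases before the annotated start of each of the 46 genes, with the call in ethylene after the name. Red squares are seen in the wall and peroxidase groups before 4 of 10 and 4 of 7 genes. None is seen in the fate, bHLH and tip machinery groups, which are too small to set against the share of all genes.

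No kinase or calcium-binding gene was called. RSH3, a protein kinase gene annotated as root hair specific 3, came nearest, measuring 1.07 FPKM in air against 2.63 under ethylene, with a q of 0.0710 in the authors' deposited table. IRE, a kinase needed for normal hair elongation, was at 0.581 and 1.19 FPKM, and MRH1, a receptor-like kinase, at 12.1 and 12.4 FPKM. RHS16, a further receptor-like kinase, was at 2.21 and 1.79 FPKM, and the EF-hand protein gene RHS1 at 0.794 and 0.770. RHS10, a proline-rich receptor-like kinase known to restrain hair growth, is split over 3 entries of the same span. The entry chosen by its mean measured 4648 FPKM in air against 482 under ethylene, far above any other gene of the list, and missed the threshold, with a standard error of 1.86 on a log2 ratio of -3.27. Another entry measured 4.20 FPKM in air against 5.59 under ethylene, and the third was not tested. The entries differ so much in level that no change is read for RHS10.

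The tip machinery moved in both directions. COW1 (AT4G34580, chromosome 4, 16515102 to 16518746), a phosphatidylinositol transfer protein that organises the growing tip, rose 1.86-fold, from 4.58 in air to 8.51 FPKM (log2 ratio 0.89, standard error 0.31). It had a q of 0.00164 in the authors' deposited table. ADF8 (AT4G00680, chromosome 4, 279596 to 281072), an actin depolymerizing factor, rose 2.01-fold, from 9.98 in air to 20.1 FPKM (log2 ratio 1.01, standard error 0.42). Its nearest relative ADF11 (AT1G01750), 87.6% identical in coding sequence, measured 13.7 FPKM in air against 14.9 under ethylene and missed the threshold. The log2 ratio of ADF11, 0.12, has a standard error of 1.73, so a rise like that of ADF8 would not have been detected. Neither the COW1 call nor the ADF8 call held with the normal reference, at q values of 0.0577 and 0.189.

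ROP2 (AT1G20090, chromosome 1, 6966842 to 6969009), the GTPase that marks the site of hair outgrowth and also acts in other epidermal cells, fell 1.44-fold, from 73.1 in air to 50.8 FPKM (log2 ratio -0.52, standard error 0.22). It had a q of 0.0133 in the authors' deposited table, and the call was lost with the normal reference (q = 0.216). ROP4, 90.4% identical in coding sequence, measured 55.7 FPKM in air against 53.7 under ethylene and missed the threshold. SCN1, which confines ROP activity to a single site, was at 80.7 and 69.0 FPKM (log2 ratio -0.23, standard error 0.22). ROPGEF3, an activator of ROP GTPases, was at 4.06 and 4.68 FPKM. RHD2, the NADPH oxidase that makes reactive oxygen at the tip, measured 5.94 FPKM in air against 5.70 under ethylene, with a standard error of 0.28 on a log2 ratio of -0.06. MRH2, a kinesin with armadillo repeats, was at 0.790 and 1.40 FPKM.

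In the last group RHS15 (AT4G25220, chromosome 4, 12920742 to 12922885), a glycerol-3-phosphate transporter family gene, rose 1.84-fold, from 4.19 in air to 7.72 FPKM (log2 ratio 0.88, standard error 0.36). It had a q of 0.0138 in the authors' deposited table, and a q of 0.177 with the normal reference. MRH6 measured 2.49 FPKM in air against 5.36 under ethylene, RSH2 at 2.30 and 2.67, and RSH4 at 1.72 and 2.34, none of them called. RSH4 lies 5182 bases from the peroxidase AT1G30870 on chromosome 1, with 1 protein-coding gene between them, and no other pair of members lay within 10 genes of each other.

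A second set held 42 root hair genes, grouped by known role. These genes were chosen with earlier results of these data known, so their counts are not an independent repeat. Among them 13 rose, 2 fell and 27 were not called, with a median log2 change of 0.06, beside 4.79% higher and 6.50% lower over all tested entries. Of its 13 wall genes 11 rose, and the other 2, the extensins EXT6 and EXT12, had higher values without passing the test. XTH13, XTH26 and XTH12, enzymes that cut and rejoin xyloglucan, changed most, from 2.94 to 15.3, from 1.59 to 8.11 and from 6.06 to 21.6 FPKM. EXT12 measured 9.28 FPKM in air against 16.5 under ethylene, and a further entry of it was called higher, at 6.54 and 18.0 FPKM. AT4G08400 was called at a q of 0.0478 in the authors' deposited table, and an entry naming it with AT4G08410 was not called (q = 0.0784). A second EXT10 entry, at 4.09 and 4.98 FPKM, was not called either. Extensins are repetitive and alike, so reads may be shared among them. Of the 3 further bHLH factors, LRL1 rose from 39.4 to 64.8 FPKM, AT5G43175, called higher, had a listed value of 0 in air and 2.56 FPKM under ethylene, and LRL2 was not called, at 17.9 and 14.5 FPKM.

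Among 19 further genes of tip growth, some known mainly from root hairs and others of wider use, none was called by Cuffdiff. Over all tested entries, 11.3% were called in either direction, and 19 genes are too few to set against that share. At an unadjusted p under 0.05, 2 of the 19 passed (SYP123 and CNGC6, both with lower values in ethylene), and the median change was -0.10. SYP123, a syntaxin of root hairs, was at 6.48 and 3.47 FPKM, and PIP5K3, a lipid kinase of the hair tip, at 0.977 and 0.568 FPKM. ACT2, a main actin of vegetative tissue, measured 706 FPKM in air against 622 under ethylene. FER, the receptor kinase that guards wall integrity, was at 141 and 139 FPKM. BST1, a phosphatase of hair growth, is split over 4 entries, and the one chosen by its mean was at 0.873 and 42.3 FPKM. It was not called in the authors' table and was called with the normal reference (q = 0.000555), while another entry was at 1.21 and 1.24 FPKM, so its level is uncertain. Among 7 genes of fate and position, JKD, a zinc finger factor of cortex and endodermis, fell from 49.7 to 36.8 FPKM, and SCM, the receptor that senses position, fell from 4.94 to 3.07. Both calls were lost with the normal reference. ZFP5, an activator of hair initiation, measured 26.2 FPKM in air against 22.4 under ethylene in its main entry and missed the threshold, and a second entry fell from 8.27 to 3.29.

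**Figure D5:**
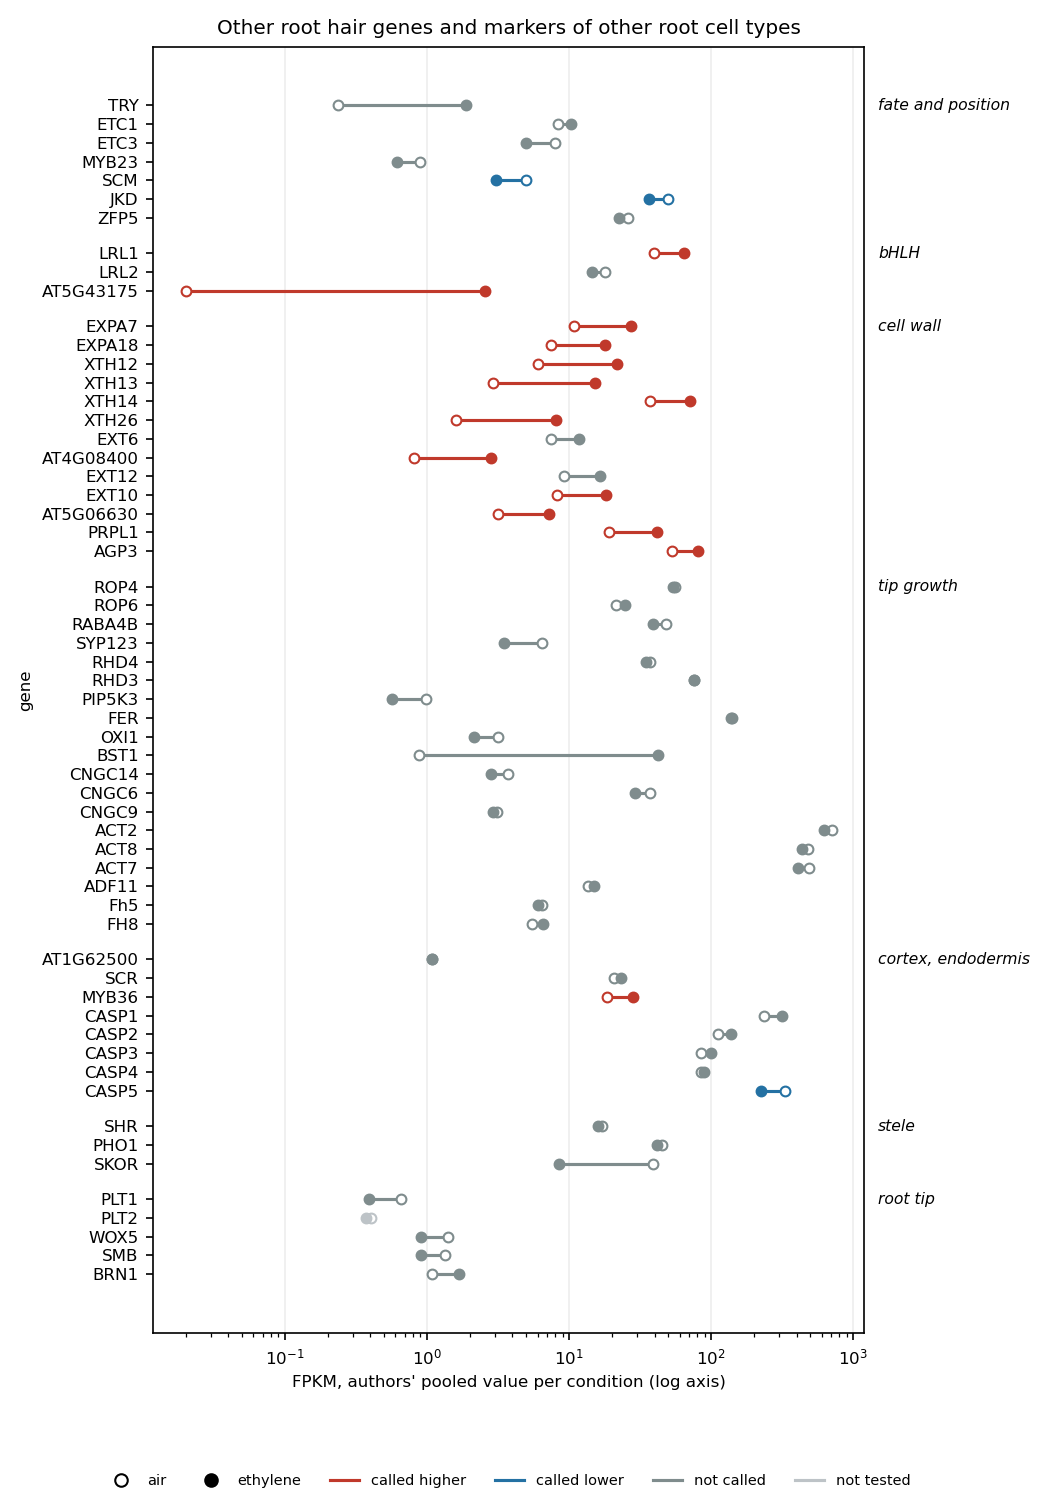
FPKM in air (open circles) and ethylene (filled circles) of the 42 other root hair genes and of 16 markers of other root cell types, on a log axis and coloured by the call; the air value of AT5G43175, listed at 0, is drawn at the left edge. Red lines fill the cell wall group, with 11 of 13 genes called higher, while the 19 tip growth genes show no call.

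Markers of other root cell types are given beside these counts, and their part in the result was not tested. Of 16 such markers, 1 was called higher (6.25%), 1 lower and 1 was not tested. Over all tested entries, 4.79% were called higher and 6.50% lower. The median log2 change of the 16 markers was -0.02. Their summed level was 994 FPKM in air and 991 in ethylene. The 8 cortex and endodermis genes made up 888 and 920.5 FPKM of it, with single genes moving in both directions. The sum also holds the uncertain SKOR entry given below, so its near equality does not show that the single markers were unchanged. In cortex and endodermis, MYB36, a factor of endodermal differentiation, rose from 18.4 to 28.4 FPKM and CASP5, a protein of the Casparian strip, fell from 330.0 to 225, and both calls were lost with the normal reference. CASP1 to CASP4 had values 1.04 to 1.34 times higher in ethylene and were not called. At an unadjusted p under 0.05, 3 of the 8 cortex and endodermis genes (MYB36, CASP1 and CASP2; 37.5%) and 18.8% of the 16 markers had a higher value in ethylene, against 9.17% of all entries. In the stele SHR was at 17.1 and 16.1 FPKM and PHO1 at 45.2 and 41.3. SKOR, split over 5 entries, was at 39.1 and 8.50 FPKM in the entry with the highest mean, which was not called in the authors' table and was called with the normal reference (q = 1.8e-08 after Benjamini-Hochberg adjustment). The other tested SKOR entries were at 2.43 and 8.54, 2.90 and 3.85, and 2.36 and 1.62 FPKM, so they do not share a direction and no change is read for SKOR. The root tip markers stayed between 0.370 and 1.68 FPKM in both conditions. Outside the root, HLS1, a gene of the apical hook of dark-grown seedlings, rose from 18.6 to 41.1 FPKM. PORA and PORB were called higher as well, at 583 and 981 FPKM under ethylene, and both calls were lost with the normal reference. The stomatal markers TMM, FAMA and EPF2 lay between 0.385 and 2.76 FPKM and were not called.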

How the data were processed

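RNA was sequenced from whole seedlings, 2 libraries per condition. The submitters' processing notes name TopHat2 2.0.9, Cuffdiff 2.2.1 and the TAIR10 build. Annotation, parameters, strand setting and scaling: not given in the sources used here. Deposited values are FPKM, pooled by the authors to 1 value per condition, per the file headers. The p-value and q-value columns and the test statistic, a score on the authors' scale, are deposited too. The name of the deposited sheet gives SRT1 alone, and the labels, which give both genes, were followed. The deposited q equalled Benjamini-Hochberg adjustment over 21076 tested entries to within 5.25e-07. The smallest p, 5e-05, was shared by 1200 entries, and 331 statistic cells held text.

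For each locus the entry naming it alone was preferred, then the higher mean; 4 members had several entries. Folds were recomputed from FPKM, and changes are log2 values with a pseudocount of 1 FPKM. Of 33414 loci, 32674 were in the TAIR10.1 annotation, and all 25766 comparable entries overlapped their annotated gene. Coding sequences were compared with BLAST 2.17.0. Symbols absent from the annotation were replaced by its own symbol or the locus. Tools were Python 3.11.15, pandas 2.3.3 and SciPy 1.17.1; the adjustment and the motif search were tested on simulated data.

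Genes were named by role: all 46 members are accounted for, with full statistics for up to 3 called members per role; of further genes, up to 3 called and the most abundant uncalled one per list, and others named were chosen after their values were seen. The members and lists were chosen with earlier results of these data known. No per-sample column was left out (0 unused).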

Additional observations from a re-analysis of the deposited data

How the results depend on the processing

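No paired analysis was possible because the table holds 1 pooled value per condition; for the same reason no library could be left out. With the normal reference for the statistic, higher calls went from 995 to 535 and lower calls from 1352 to 666 over all entries. Among the 46 root hair genes they went from 16 to 8 and from 1 to 0. Among the 42 other root hair genes, higher calls went from 13 to 11 and lower calls from 2 to 0. The 11 include BST1, newly called and of uncertain level. AT4G08400 and AGP3 lost their calls, and AT5G43175 had no statistic to recompute from. At a q of at most 0.01, 11 root hair genes were higher and 0 lower, and 0 of the 42 were lower. With a minimum change of 2-fold there were 10 higher and 0 lower calls. The median change of the 46 genes, 0.36, was 0.50 with a pseudocount of 0.1, 0.51 with 0.01 and 0.47 over the 43 genes at 1 FPKM or more. Upper quartile scaling, TPM, the entry with the highest mean and leaving out the 4 loci with several entries (the last added after the data were seen) gave medians of 0.36 to 0.38, and 15 or 16 higher calls where calls were recounted. A filter at 1 FPKM left 16 higher and 1 lower. Upper quartile scaling multiplies every value of a condition by 1 constant (ratio 0.998) and leaves the deposited q as it is, so it tests no call. The unknown depth, and the absence of single-library values, limit what can be said of genes near 1 FPKM.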
